A study of Mus musculus with 2 samples.

Results

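The Folr2/Lyve1-positive macrophages of the mouse peritoneal cavity were the barcodes chosen by their own counts of 3 kinds of transcript. A cell belonged to them if it held 2 or more unique molecular identifiers (UMIs, single counted RNA molecules) of Folr2 and Lyve1 together, 0 UMIs of Ccr2, and under 3 UMIs of the B cell genes Cd79a, Cd79b and Ms4a1 together. They numbered 488 of 12619 cells (3.87%), 93 of 6360 in the library from Ankrd22-/- mice, made with CRISPR/Cas9, and 395 of 6259 in the library from Ankrd22+/+ mice. Both libraries came from F4/80+ peritoneal lavage cells sorted by flow cytometry, F4/80 being the macrophage surface protein encoded by Adgre1, and no treatment is named. The labels give neither the number of mice behind a library nor which part of the gene was removed, and strain, age and sex of the mice are not given in the sources used here. Each positive cell was set beside the comparison cells of its own library, 5803 and 5223 cells with 0 UMIs of Folr2, Lyve1 and Ccr2 under the same B cell limit. Neither genotype had a replicate library, so nothing was tested. Genotype and library cannot be told apart, and every interval printed is a 95% interval that covers counting error only.

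Folr2 encodes folate receptor beta, a membrane protein that takes up folate, and Lyve1 encodes a hyaluronan receptor best known from lymphatic endothelium. Macrophages carrying both proteins are found in many tissues, often along vessels and serosal surfaces, and are known for the mannose receptor Mrc1, scavenger receptors and slow replacement from blood monocytes. In the peritoneal cavity the main population is the large macrophage, which depends on the transcription factor Gata6, while smaller macrophages with class II antigen presentation genes and Ccr2, the receptor for monocyte-attracting chemokines, derive from monocytes.

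The targeted gene Ankrd22 had 0 UMIs in every positive cell and in every other cell of both libraries. At 3 counts, 0 of 93 and 0 of 395 positive cells allow shares of up to 3.23% and 0.759% of cells with an Ankrd22 UMI, so the gene did not check the labels. The kept cells had medians of 16237 UMIs in the knockout and 14622 in wild type cells. Positive cells were deeper than comparison cells, with medians of 21134 against 16003 UMIs in the knockout and 17189 against 14283 in the wild type library. Their median share of mitochondrial UMIs was 1.25% against 1.48% and 0.655% against 0.690%. The libraries shared 15 barcodes, none of them a positive cell. Levels below are therefore given per 1000000 UMIs summed over a class of cells (CPM), and the share of cells showing a gene is given after drawing 5000 UMIs from each cell (thinning).

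Positive cells made up 1.46% of the kept knockout cells (1.18 to 1.79) and 6.31% of the wild type cells (5.72 to 6.94). The knockout share was the lower one although its cells were the deeper ones. When the rule was applied to cells thinned to 5000 UMIs, the shares were 0.612% and 3.86%, and requiring at least 1 UMI of each gene gave 0.377% and 1.87%. The gap was wider in cells with many rule UMIs: 17 knockout and 106 wild type cells held 10 or more, and 33 and 97 held exactly 2. A further 181 knockout cells (2.85%) and 368 wild type cells (5.88%) lay just outside the rule with 1 UMI. Since these genes chose the cells, the shares describe the libraries and support nothing else. In sorted cells a lower share of positive cells and less Folr2 and Lyve1 RNA per cell cannot be told apart.

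**Figure D1:**
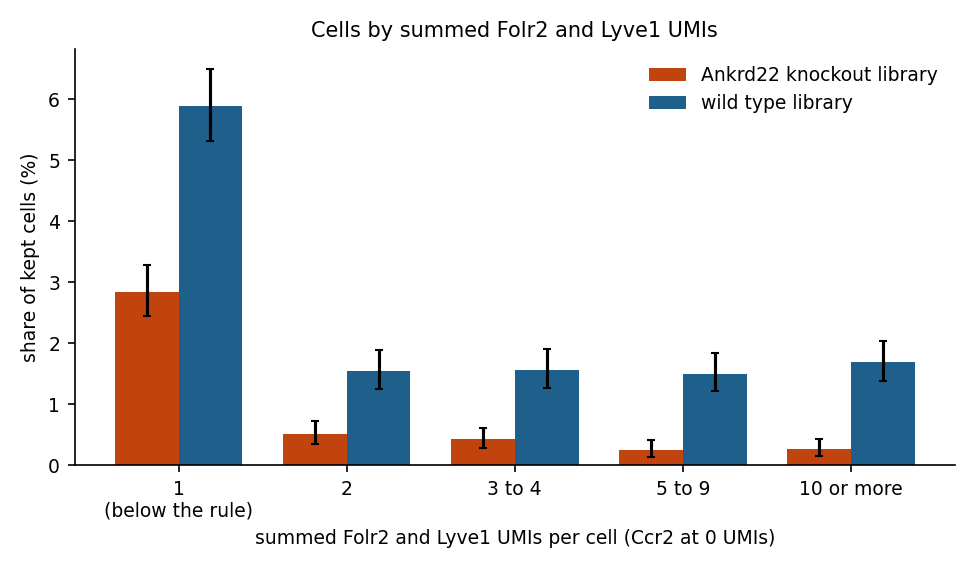
Share of kept cells (vertical axis, percent) by the summed Folr2 and Lyve1 UMIs of a cell (horizontal axis, bins), among cells with 0 Ccr2 UMIs. Bars are the Ankrd22 knockout and wild type libraries, lines are exact 95% binomial intervals, and the wild type bar is the higher one in every bin, from 5.88% against 2.85% at 1 UMI to 1.69% against 0.267% at 10 or more.

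The rule genes themselves were at 152 CPM (Folr2) and 201 CPM (Lyve1) in the positive cells of the knockout library and at 229 and 256 CPM in those of the wild type library. Folr2 (ENSMUSG00000032725, chromosome 7, 101839988 to 101857194 on the minus strand) and Lyve1 (ENSMUSG00000030787, chromosome 7, 110850607 to 110863239 on the minus strand) were unevenly combined: 54 knockout and 199 wild type cells held only Folr2 UMIs, 15 and 79 only Lyve1 UMIs, and 24 and 117 both. The F4/80 gene Adgre1 was at 573 and 657 CPM in positive cells, beside 618 and 681 CPM in comparison cells, and the macrophage growth factor receptor gene Csf1r was at 366 and 423 CPM, beside 328 and 347 CPM. The other markers given for these cells, Mrc1, Retnla, Cbr2 and F13a1, were each higher in positive than in comparison cells of both libraries. Gata6, the factor of large peritoneal macrophages, was present too, at 122 and 104 CPM.

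Markers of other cells in the positive cells were low or like those of the comparison cells. All 13 mesothelial and stromal markers were at 0 UMIs in the positive cells of both libraries. Of 12 lymphatic endothelial markers other than Lyve1, 9 were at 0 in each library, and the list summed to 1.88 and 1.78 CPM. T and NK cell markers summed to 0.938 and 0.685 CPM. B cell markers outside the rule summed to 35.2 and 55.1 CPM, against 33.0 and 46.2 CPM in comparison cells, with Bank1 giving most UMIs. The dendritic cell list summed to 40.4 and 66.2 CPM, against 44.1 and 56.7 CPM, and its defining genes Xcr1, Clec9a and Flt3 were at 0 in the positive cells of both libraries. Neutrophil markers summed to 90.6 and 89.9 CPM, against 89.0 and 99.5 CPM. No working doublet call was obtained, and their part in the results was not tested. Removal of the highest doublet scores, which took 4 and 15 positive cells, is given with the other alternatives.

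The mannose receptor gene Mrc1 stood furthest above the comparison cells. Mrc1 (ENSMUSG00000026712, chromosome 2, 14229392 to 14332057 on the plus strand), which encodes an endocytic receptor for mannose-bearing glycoproteins, was at 67.6 against 1.63 CPM in the knockout and 79.3 against 4.26 CPM in the wild type library. That was 41.5-fold higher (32.9 to 52.3) and 18.6-fold higher (16.3 to 21.4). Retnla (ENSMUSG00000061100, chromosome 16, 48842551 to 48844461 on the plus strand) encodes the secreted protein RELM alpha, a product of interleukin-4 activated macrophages. It was among the most abundant transcripts that set the cells apart, at 2237 against 121 CPM in the knockout and 4613 against 677 CPM in the wild type library, 18.5-fold (17.9 to 19.1) and 6.81-fold (6.72 to 6.91) higher. Cbr2 (ENSMUSG00000025150, chromosome 11, 120729489 to 120732114 on the minus strand), a carbonyl reductase, was at 54.9 against 4.49 CPM in the knockout and 77.8 against 10.3 CPM in the wild type library. F13a1, the A chain of the clot-stabilizing coagulation factor XIII, was at 208 against 40.3 CPM in the knockout and 439 against 155 CPM in the wild type library. Maf, a transcription factor of resident macrophages, was at 229 against 44.6 CPM in the knockout and 233 against 76.8 CPM in the wild type library. In all of these the positive cells of both libraries lay above the comparison cells of both libraries.

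Several scavenger and lectin genes were also higher in the positive cells. Fcna, a ficolin that recognizes microbial sugars, was at 1519 against 419 CPM in the knockout and 1841 against 726 CPM in the wild type library. Marco, a scavenger receptor for bacteria and particles, was at 91.0 against 28.4 CPM in the knockout and 149 against 56.1 CPM in the wild type library. Of its knockout UMIs in positive cells 25.3% lay in 1 cell, and the level without that cell was 69.0 CPM. Stab1, a scavenger and hyaluronan receptor, was at 27.2 against 5.35 CPM in the knockout and 29.1 against 11.9 CPM in the wild type library. Each was above its comparison cells in both libraries. The haemoglobin scavenger receptor gene Cd163 was at 21.6 against 0.830 CPM in the knockout and 24.4 against 3.42 CPM in the wild type library, but 54.3% of its knockout UMIs in positive cells lay in 1 cell, and the level without that cell was 10.1 CPM. The chemokine gene Ccl6 was abundant in both classes, at 3721 against 1389.6 CPM in the knockout and 2887 against 1153 CPM in the wild type library. Fxyd2, a regulatory subunit of the sodium pump, was at 78.4 against 5.25 CPM in the knockout and 31.8 against 2.88 CPM in the wild type library.

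**Figure D2:**
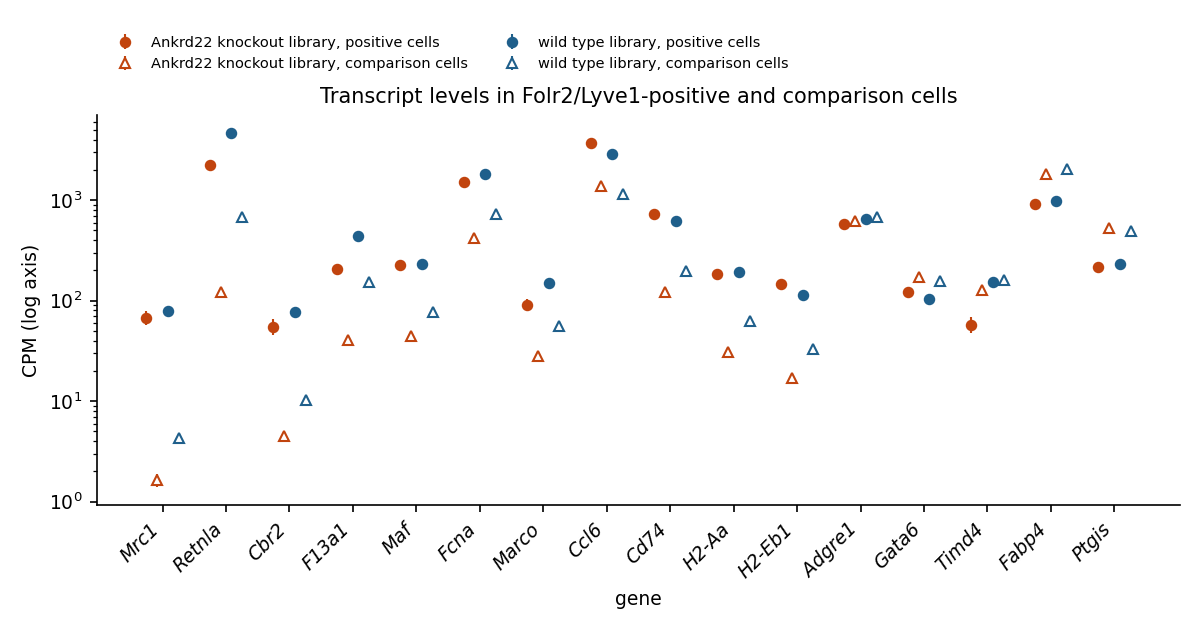
Level of 16 genes in CPM (vertical log axis) in the positive cells (filled circles) and comparison cells (open triangles) of the Ankrd22 knockout and wild type libraries. Lines are exact 95% Poisson intervals, mostly narrower than the symbols. Mrc1, Retnla and Cbr2 show the widest gap (Mrc1 67.6 against 1.63 CPM in the knockout), Adgre1 almost none, and Fabp4 and Ptgis the opposite order.

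Mrc1 and Retnla were also seen in a larger share of positive than of comparison cells. After thinning, 91 knockout and 383 wild type positive cells remained, with 2 and 12 too shallow, and 5680 and 4917 comparison cells, with 123 and 306 too shallow. An Mrc1 UMI was found in 27.5% (18.6 to 37.8) of positive cells against 0.757% (0.548 to 1.02) of comparison cells in the knockout, and in 27.2% (22.8 to 31.9) against 1.61% (1.27 to 2.0) in the wild type library. Without thinning the Mrc1 shares were 47.3% against 2.05% and 49.1% against 4.12%. Mrc1 was thus seen in a part of the positive cells only at this depth. Retnla was seen in 63.7% (53.0 to 73.6) against 14.7% (13.8 to 15.7) of thinned knockout cells and in 78.1% (73.6 to 82.1) against 39.0% (37.6 to 40.4) of thinned wild type cells, and without thinning in 77.4% against 33.2% and 91.6% against 63.8%. Barcodes with B cell transcripts and no Adgre1 or Csf1r UMI, which should lack these genes, numbered 21 and 26 and were shallow, with medians of 3407 and 4330 UMIs. Unthinned, 0 and 0 of them held an Mrc1 UMI, 1 and 11 a Retnla UMI. The Retnla share of the wild type B cell barcodes, 42.3% unthinned and 25% (5.49 to 57.2) of the 12 that could be thinned, is the background for that gene. The share of the wild type positive cells lay above its interval, and that of the comparison cells lay within it.

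Within the positive cells these transcripts were unevenly spread. Retnla was found, without thinning, in 362 wild type cells, with a median of 20 and a maximum of 1159 UMIs per positive cell. In the knockout it was found in 72 cells, with a median of 9 and a maximum of 495 UMIs per positive cell, and 1 cell held 10.4% of the UMIs. Mrc1 was found in 194 wild type cells, with a median of 0 and a maximum of 19 UMIs per positive cell, and in the knockout in 44 cells, with a median of 0 and a maximum of 16 UMIs per positive cell. F13a1 was found in 359 wild type cells, with a median of 6 and a maximum of 66 UMIs per positive cell, and in the knockout in 74 cells, with a median of 3 and a maximum of 48 UMIs per positive cell. Maf was the most evenly spread of the 5 markers in the knockout, where 86 of 93 cells held a UMI and the top cell held 6.16% of them. Leaving out the top cell gave knockout levels of 2033 CPM for Retnla, 60.7 CPM for Mrc1 and 46.5 CPM for Cbr2, all above their comparison cells.

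Class II antigen presentation genes formed another group above the comparison cells when all positive cells were summed. H2-Eb1, the beta chain of the I-E class II molecule, was at 147 against 17.2 CPM in the knockout and 114 against 33.1 CPM in the wild type library, 8.55-fold (7.56 to 9.66) and 3.45-fold (3.19 to 3.73) higher. H2-Aa, the alpha chain of I-A, was at 184 against 30.8 CPM in the knockout and 191 against 62.4 CPM in the wild type library. H2-Ab1, its beta chain, was at 183 against 41.8 CPM in the knockout and 201 against 76.3 CPM in the wild type library. Cd74, the invariant chain that guides class II molecules through the cell, was at 725 against 123 CPM in the knockout and 622 against 197 CPM in the wild type library. In the knockout positive cells the top 5 cells held 40.6% of the H2-Eb1, 37.2% of the H2-Aa, 36.6% of the H2-Ab1 and 37.8% of the Cd74 UMIs. Of the 10 class II genes measured in both libraries these 4 were at least 2-fold higher in both and 0 were 2-fold lower, beside 0.568% higher and 0.231% lower over all genes measured. The median log2 ratio was 0.48 over 10 genes of the knockout and 0.34 over 11 genes of the wild type library. H2-DMb1, which loads peptides onto class II molecules, was nearer to the comparison cells, at 53.0 against 36.9 CPM in the knockout and 44.5 against 35.1 CPM in the wild type library. The class II activator gene Ciita was at 4.22 against 0.820 CPM in the knockout and 1.37 against 0.548 CPM in the wild type library. All of these Ciita levels lay below the 20 CPM needed for a call. B cell barcodes carry class II RNA too, and 20 of 21 and 26 of 26 held an H2-Eb1 UMI; their part in the class II values was not tested.

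Promoter windows are shown as examples for 4 genes that held a searched motif: Retnla and Cbr2 of the marker group, and H2-Aa and H2-Eb1 of the class II group. They run from 250 bases before to 50 bases after the gene start and were taken from RefSeq, build GRCm38.p6. The table held such a window for 22 of the 27 genes that were at least 2-fold higher in positive cells of both libraries (0.568% of genes measured). Capitals mark matches, on either strand, to TGCTGA (core of the element bound by MAF proteins), the STAT6 motif (TTC and GAA with 4 bases between, for the factor activated by interleukin-4), GAGGAAGT (PU.1) and CTGATTGG (the Y box of class II genes). In H2-Eb1 the matches to TGCTGA and CTGATTGG overlap.
Retnla (chr16:48842359-48842658, plus strand): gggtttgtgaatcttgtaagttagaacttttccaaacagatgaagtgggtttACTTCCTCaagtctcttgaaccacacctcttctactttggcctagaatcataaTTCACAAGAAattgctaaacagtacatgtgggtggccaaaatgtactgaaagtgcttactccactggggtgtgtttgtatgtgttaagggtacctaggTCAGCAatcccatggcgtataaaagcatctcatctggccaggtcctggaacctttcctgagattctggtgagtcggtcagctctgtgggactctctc
Cbr2 (chr11:120731972-120732271, minus strand): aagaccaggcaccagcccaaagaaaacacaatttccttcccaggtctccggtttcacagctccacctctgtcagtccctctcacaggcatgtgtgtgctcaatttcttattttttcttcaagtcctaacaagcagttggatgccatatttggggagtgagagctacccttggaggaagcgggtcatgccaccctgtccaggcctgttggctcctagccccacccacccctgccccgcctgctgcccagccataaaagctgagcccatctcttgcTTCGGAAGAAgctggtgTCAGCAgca
H2-Aa (chr17:34287774-34288073, minus strand): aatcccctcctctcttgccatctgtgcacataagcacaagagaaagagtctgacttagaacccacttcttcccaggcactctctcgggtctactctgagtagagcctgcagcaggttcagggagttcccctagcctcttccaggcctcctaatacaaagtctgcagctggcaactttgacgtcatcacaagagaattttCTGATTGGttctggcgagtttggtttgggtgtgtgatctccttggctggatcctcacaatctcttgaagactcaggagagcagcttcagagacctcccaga
H2-Eb1 (chr17:34305617-34305916, plus strand): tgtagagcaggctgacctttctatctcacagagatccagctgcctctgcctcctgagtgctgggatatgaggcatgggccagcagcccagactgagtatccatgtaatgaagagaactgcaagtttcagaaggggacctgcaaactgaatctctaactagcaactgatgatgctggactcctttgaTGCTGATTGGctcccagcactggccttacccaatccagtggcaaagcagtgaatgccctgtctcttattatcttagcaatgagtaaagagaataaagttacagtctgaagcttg
Among the 22 matched genes, 7 held TGCTGA, 3 held the STAT6 motif, 1 held GAGGAAGT and 2 held CTGATTGG. Of all 27025 promoter windows of the same length, 19.1%, 6.99%, 3.28% and 4.31% held them. The window of Retnla held 3 of the 4 motifs, those of Cbr2 and H2-Eb1 held 2, and that of H2-Aa held the Y box alone. A match says only that the letters are there.

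Over all genes, 51 of 5346 measured genes (0.954%) were at least 2-fold higher and 26 (0.486%) 2-fold lower in the positive cells of the knockout library, at 20 CPM or more in the higher class. In the wild type library, 35 of 4933 (0.71%) were higher and 15 (0.304%) lower. In both libraries, 27 of 4754 (0.568%) were higher and 11 (0.231%) lower. The median gene had a log2 ratio of 0.08 in the knockout and 0.13 in wild type cells. Of 22 measured markers of Folr2- and Lyve1-positive tissue macrophages other than the rule genes, 10 were higher and 0 lower in both. Their median log2 ratio was 0.89 over 22 genes of the knockout and 0.63 over 23 genes of the wild type library. Scavenger and endocytic receptors counted 5 of 20 higher (Mrc1, Stab1, Cd163, Marco and Fcna), and alternative activation genes 3 of 11 (Retnla, Mrc1 and Cd163). Of the 10 genes of small and recruited macrophages, 2 were higher, the lectin genes Clec4a1 at 46.5 against 14.8 CPM in the knockout and 45.1 against 17.4 CPM in the wild type library and Clec4a2 at 25.3 against 3.40 CPM in the knockout and 22.2 against 6.81 CPM in the wild type library. The platelet-activating factor receptor gene Ptafr was at 78.8 against 28.7 CPM in the knockout and 65.8 against 30.4 CPM in the wild type library. Nrp1, a receptor for semaphorins and vascular growth factor, was at 67.1 against 27.8 CPM in the knockout and 79.1 against 32.2 CPM in the wild type library, and Igfbp4, which binds insulin-like growth factors, at 47.9 against 13.1 CPM in the knockout and 105 against 46.3 CPM in the wild type library. In each of these 4 lists 0 genes were 2-fold lower in both libraries. Markers of such cells that did not reach 2-fold in both included the chemokine gene Pf4, at 4559 against 3330.0 CPM in the knockout and 10995 against 9364 CPM in the wild type library, the growth factor gene Igf1, at 14.1 against 10.3 CPM in the knockout and 67.6 against 60.4 CPM in the wild type library, and the chemokine gene Ccl24, at 279 against 283 CPM in the knockout and 937 against 978 CPM in the wild type library.

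**Figure D3:**
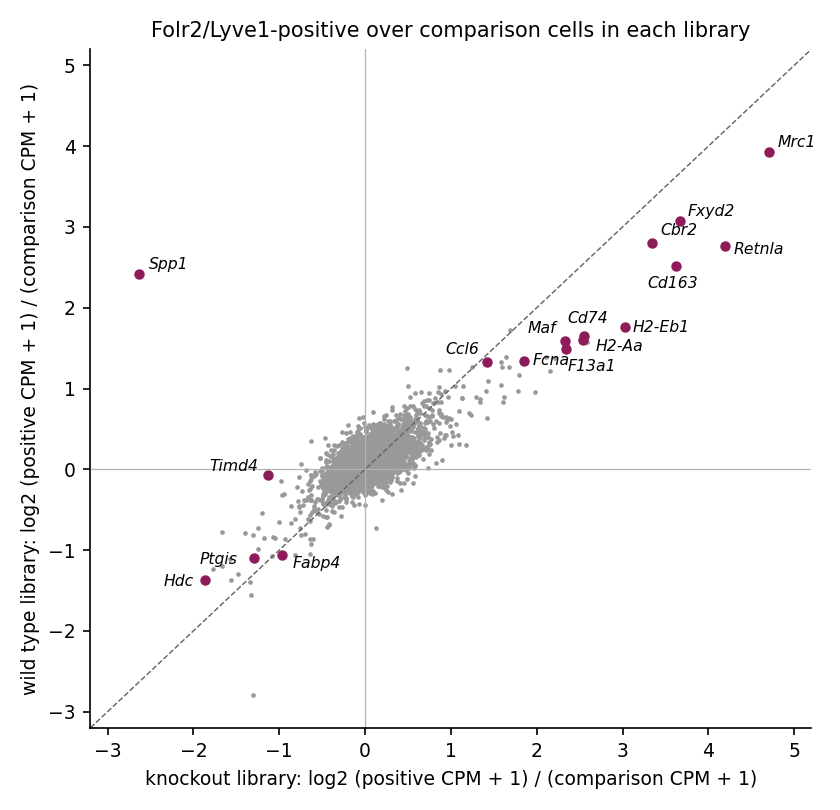
Log2 ratio of positive over comparison cells, with 1 CPM added to each, in the Ankrd22 knockout library (horizontal) and in the wild type library (vertical). Each point is a gene at 20 CPM or more in the higher class of both libraries, and the dashed line marks equal ratios. Mrc1 (4.71 and 3.93) lies furthest up, Hdc, Ptgis and Fabp4 lie at the lower left, and Spp1 (-2.64 and 2.42) lies apart with opposite signs.

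Other gene groups had few or no genes past 2-fold in both libraries. Folate uptake and metabolism genes other than Folr2 counted 0 of 5 higher, with medians of 0.01 and 0.22. Among 6 hyaluronan genes other than Lyve1, Stab1 alone was 2-fold higher in both, but all 6 had log2 ratios above 0 in both libraries, with medians of 0.70 over 7 genes of the knockout and 0.38 over 6 genes of the wild type library. The hyaluronan receptor gene Cd44 was at 196 against 101 CPM in the knockout and 230.2 against 150 CPM in the wild type library. Of 13 complement genes 0 were 2-fold higher in both; C1qa, part of the complement starter C1q, was at 3362 against 1673 CPM in the knockout and 5719 against 4643 CPM in the wild type library. Of 25 transcription factors 1 was higher, Maf. Lipid, lysosome, interferon response, immediate early and inflammatory lists had 0 genes 2-fold higher or lower in both, over 20, 21, 9, 22 and 7 genes. Cell cycle genes also had 0 of 12 past 2-fold in both, but all 12 had log2 ratios above 0 in both libraries, in cells that were also the deeper ones. The median of the list was 0.67 over 13 genes of the knockout and 0.54 over 15 genes of the wild type library. Mki67, which marks dividing cells, was at 44.1 against 23.9 CPM in the knockout and 50.4 against 25.5 CPM in the wild type library, with 42.6% of its knockout UMIs in 1 of 93 positive cells.

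Genes lower in positive cells included enzymes and markers of large macrophages. Ptgis, which makes prostacyclin, was at 216 against 530.4 CPM in the knockout and 230.4 against 495 CPM in the wild type library, 2.46-fold (2.24 to 2.70) and 2.15-fold (2.05 to 2.26) lower. Fabp4, a fatty acid carrier, was at 927 against 1813 CPM in the knockout and 984 against 2055 CPM in the wild type library. Hdc, which makes histamine, was at 25.3 against 94.9 CPM in the knockout and 16.7 against 44.8 CPM in the wild type library. Nt5e, the surface enzyme CD73 that makes adenosine, was at 33.3 against 71.6 CPM in the knockout and 28.1 against 60.0 CPM in the wild type library. The level in comparison cells exceeded that in positive cells in both libraries for each. Of 31 measured genes of large macrophages, 2 were 2-fold lower in both (Hdc and Nt5e) and 1 higher (Marco), and 6 had log2 ratios above 0 in both libraries. Over all genes measured, 0.231% were lower and 0.568% higher in both. The median of the list was -0.38 over 31 genes of the knockout and -0.20 over 32 genes of the wild type library. Gata6 was at 122 against 173 CPM in the knockout and 104 against 155 CPM in the wild type library, a gap of under 2-fold. Coagulation factor V (F5) was at 465 against 740.3 CPM in the knockout and 532 against 817 CPM in the wild type library, Tgfb2, a transforming growth factor, at 244 against 490.0 CPM in the knockout and 251 against 396 CPM in the wild type library, and Garnl3 at 171 against 301 CPM in the knockout and 122 against 257 CPM in the wild type library. Rgs2 and Rgs1, regulators of G protein signalling, were at 120.1 against 287 CPM in the knockout and 442 against 878 CPM in the wild type library and at 96.7 against 201 CPM in the knockout and 853 against 1536 CPM in the wild type library. The guanylate-binding protein gene Gbp2b was at 119 against 316 CPM in the knockout and 102 against 177 CPM in the wild type library, and Cdkn2a, an inhibitor of the cell cycle, at 23.9 against 78.3 CPM in the knockout and 57.6 against 99.6 CPM in the wild type library. Each of these was lower in positive cells in both libraries. The peptidase inhibitor gene Pi16 was at 38.9 against 111 CPM in the knockout and 26.9 against 67.2 CPM in the wild type library. Timd4, the receptor for dead cells of long-lived macrophages, went by library: it was at 57.7 against 127 CPM in the knockout, 2.21-fold lower (1.85 to 2.66), and at 154 against 162 CPM in the wild type library. Haemoglobin transcripts were lower as well: the erythroid and platelet list summed to 29.6 against 80.5 CPM and to 3.70 against 36.9 CPM, most of it Hbb-bs. Only 30 of 5803 knockout and 4 of 5223 wild type comparison cells held 3 or more UMIs of that list. Of the knockout Hbb-bs UMIs in positive cells, 42.9% lay in 1 cell. How far a few barcodes carried these sums was not tested.

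Several levels followed the number of rule UMIs in a cell, in bins drawn after the data were seen. Over cells with 0, 1, 2, 3 to 4, 5 to 9 and 10 or more Folr2 and Lyve1 UMIs, Mrc1 was at 4.26, 13.6, 37.7, 62.5, 69.7 and 136 CPM in the wild type library. In the knockout the same bins gave 1.63, 13.7, 16.7, 59.0, 117 and 117 CPM. Mrc1 was thus lowest in cells without rule UMIs and highest in the upper bins of both libraries. Retnla was at 677, 1732, 4018, 3663, 3634 and 6679 CPM in the wild type and at 121, 802, 1001, 2594, 4112 and 2354 CPM in the knockout library, where the top bin of 17 cells lay below the bin before it. The cells just outside the rule, with 1 UMI, were between the comparison cells and the positive cells for Mrc1, Retnla, F13a1 and Maf in both libraries. F13a1 was at 155 CPM at 0 and 626 CPM at 10 or more rule UMIs in the wild type, and at 40.3 and 378 CPM in the knockout library. Cd74 had no such steps above 2 UMIs: from 2 to 10 or more UMIs it was at 636, 599, 573 and 670.2 CPM in the wild type, and at 602, 543, 1571 and 549 CPM in the knockout library, the third of these over 16 cells. In the opposite direction, Gata6 was at 155 CPM at 0 and 74.1 CPM at 10 or more rule UMIs in the wild type, and at 173 and 67.6 CPM in the knockout library. Fabp4 was at 2055 and 689 CPM and at 1813 and 813 CPM. Median depth in the knockout bins from 2 to 10 or more rule UMIs was 18926, 22213, 19018 and 31392 UMIs per cell, highest in the top bin, and its part was not tested.

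**Figure D4:**
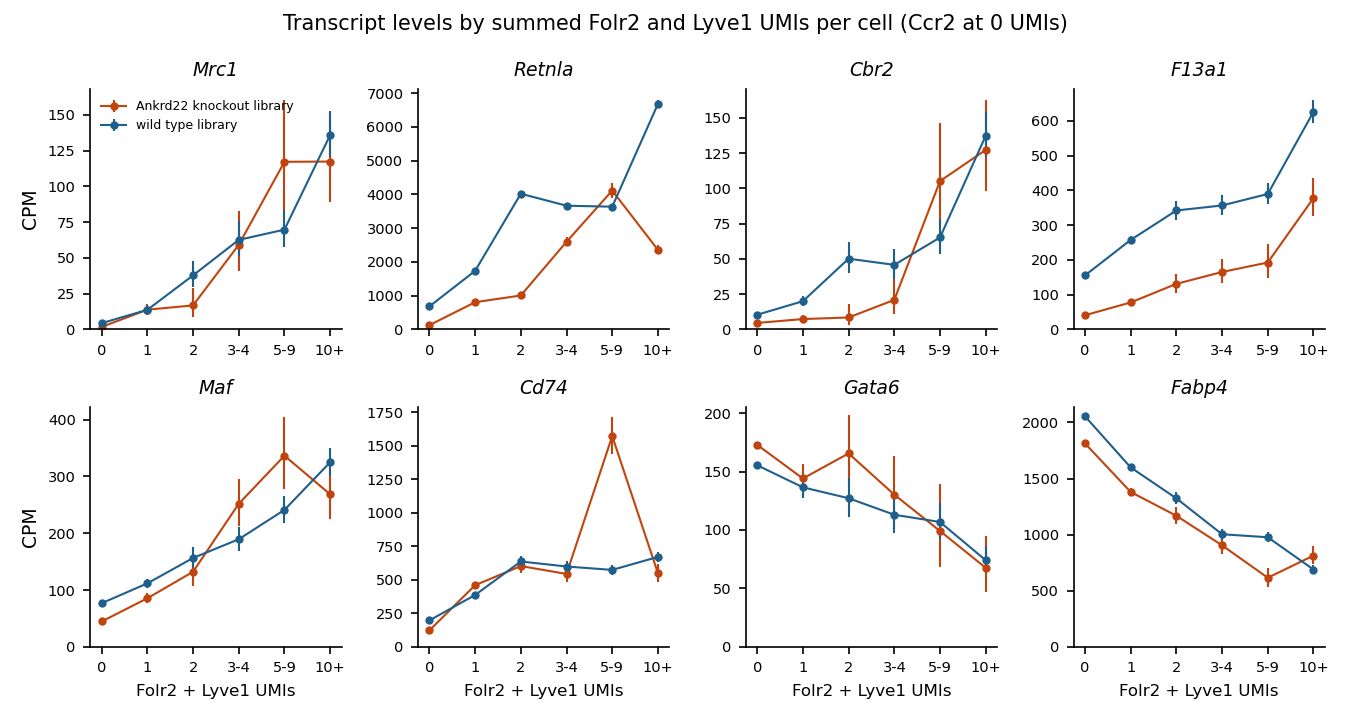
Level of 8 genes in CPM (vertical axes, from 0) by the summed Folr2 and Lyve1 UMIs of a cell (horizontal axes, bins) in the Ankrd22 knockout and wild type libraries. Points are sums over the cells of a bin and lines through them exact 95% Poisson intervals. Mrc1, Cbr2, F13a1 and Maf are highest in the 2 top bins of both libraries, while Gata6 (155 to 74.1 CPM in the wild type) and Fabp4 run downward.

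The positive cells were not uniform, and cells with Lyve1 alone stood apart from those with Folr2. In this grouping, also made after the data were seen, Retnla was at 5088, 1619 and 5754 CPM in cells with Folr2 only, Lyve1 only and both genes in the wild type library. In the knockout it was at 2550.1, 275 and 2632 CPM. Lyve1-only cells had the lowest Retnla in each library, over 79 and 15 cells. Mrc1 was at 72.7, 14.8 and 132 CPM in the wild type and 52.8, 31.9 and 122 CPM in the knockout library, in the same order of groups. Cd74 was at 775, 230.2 and 620.1 CPM and 575, 389.8 and 1262 CPM, and H2-Eb1 at 146, 35.2 and 113 CPM and 128, 41.5 and 249.5 CPM. Cells with both genes had the highest Mrc1, and Lyve1-only cells the lowest Mrc1, Cd74 and H2-Eb1, in both libraries. In the wild type library Cd74 and H2-Eb1 of the Lyve1-only cells lay near the comparison cells, which were at 197 and 33.1 CPM. In the knockout they lay above the comparison cells, at 123 and 17.2 CPM. The knockout Mrc1 of Lyve1-only cells rested on 10 UMIs, and its interval (15.3 to 58.8) overlapped that of Folr2-only cells (40.9 to 67.1). Timd4 ran the other way, at 122, 260.5 and 138 CPM in the wild type and 64.6, 70.3 and 34.6 CPM in the knockout library, and Fabp4 was at 921, 1415 and 810.4 and 965, 1495 and 514 CPM. Lyve1-only cells thus had the highest Fabp4 and Timd4 of the 3 groups in both libraries, although in the knockout their Timd4 (44.0 to 106) overlapped that of Folr2-only cells (51.4 to 80.2). Igf1, an insulin-like growth factor, was at 53.7, 111 and 63.0 CPM and 9.46, 47.9 and 5.46 CPM, again highest where Lyve1 stood alone, on 15 UMIs in the knockout group.

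Positive cells with and without a Timd4 UMI differed in Retnla, Marco and Gata6. Timd4 was seen in 191 of 395 wild type and in 23 of 93 knockout positive cells, and after thinning in 35.2% (30.5 to 40.3) and 11.0% (5.4 to 19.3), beside 37.7% (36.4 to 39.1) and 30.9% (29.7 to 32.1) of comparison cells. Where Timd4 was not seen, Retnla was at 6141 CPM in the wild type and 2597 CPM in the knockout library, against 3149.7 and 1409 CPM where it was seen. Cd74 was at 740.2 and 853 CPM without Timd4 against 509.7 and 432 CPM with it. Marco was lower without Timd4, at 113 and 36.4 CPM against 184 and 217 CPM, and so was Gata6, at 81.2 and 100.4 CPM against 125 and 173 CPM. Mrc1 differed less, at 91.1 and 70.7 CPM against 68.1 and 60.3 CPM. Cells with Timd4 were the deeper ones, with medians of 17653 against 16507 UMIs and 27914 against 19004 UMIs, and the part of depth in which cells showed a Timd4 UMI was not tested.

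Cells that met the Folr2 and Lyve1 limit but held a Ccr2 UMI were left out by the rule. They were 36 knockout and 79 wild type cells. Their Retnla was higher still, at 16317 and 12709 CPM, beside 2237 and 4613 CPM in the positive cells and 2634 and 4232 CPM in the 173 and 121 cells with Ccr2 and neither rule gene. Cd74 was at 4265 and 2963 CPM in the left-out cells, 725 and 622 CPM in the positive cells, and 2680.0 and 2105 CPM in the Ccr2 cells without rule genes. Cd74 was thus lowest in the positive cells in both libraries, while Retnla of the positive cells and of the Ccr2 cells without rule genes lay close. Mrc1 was at 188 and 155 CPM in the left-out cells, and in the Ccr2 cells without rule genes at 59.1 and 37.6 CPM. Timd4 was at 21.9 and 51.2 CPM in the left-out cells, below the 57.7 and 154 CPM of the positive cells in both libraries. The log2 ratio of knockout over wild type Retnla was -1.04 in the positive cells, and 0.048 when Ccr2 was not used.

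Between the libraries, Chil3 and Arg1 were higher and several chemokine genes lower in the knockout positive cells, and each of these went the same way in the comparison cells. Of 5410 genes measured in positive cells, 112 (2.07%) were at least 2-fold higher and 118 (2.18%) 2-fold lower in the knockout. In comparison cells the counts were 90 (1.77%) and 103 (2.03%) of 5079. With TMM scaling, 42 genes were higher and 172 lower in positive cells, and with the median of ratios 42 and 171. The median log2 ratio in positive cells was 0.17, and TMM moved it by -0.24. Chil3, a chitinase-like protein of activated macrophages, was at 956 against 19.7 CPM in positive cells and 420.2 against 16.5 CPM in comparison cells, 48.5-fold (40.9 to 57.8) and 25.4-fold (24.0 to 26.9) higher in the knockout. Arg1, the arginine-degrading enzyme arginase, was at 375 against 106 CPM in positive cells and 213 against 57.0 CPM in comparison cells. S100a6, a calcium-binding protein, was at 2247 against 679 CPM in positive cells and 2347 against 774 CPM in comparison cells. In each of these the knockout was above the wild type library in both classes. Neutrophil-attracting chemokine Cxcl2 was at 504 against 8419 CPM in positive cells and 416 against 8518 CPM in comparison cells. The related Cxcl1 was at 68.5 against 629 CPM in positive cells and 41.0 against 621 CPM in comparison cells, and Cxcl13, which attracts B cells, at 541 against 3309 CPM in positive cells and 592 against 3979 CPM in comparison cells. Tnfaip3, a feedback inhibitor of inflammatory signalling, was at 6.57 against 150.5 CPM in positive cells and 4.46 against 136 CPM in comparison cells. Ccrl2, a receptor that binds chemerin, was at 18.8 against 359.7 CPM in positive cells and 23.6 against 430.3 CPM in comparison cells. These were lower in the knockout in both classes. Of the 40 knockout Ccrl2 UMIs in positive cells, 40.0% lay in 1 cell.

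Other genes at the ends of the ranking followed the same lines. Rhoc, a small GTPase of the cytoskeleton, was at 325 against 108 CPM in positive cells and 331 against 85.9 CPM in comparison cells. Lrg1, a secreted glycoprotein, was at 478 against 187 CPM in positive cells and 711 against 268 CPM in comparison cells, and Cd24a, a surface glycoprotein, at 226 against 85.6 CPM in positive cells and 343 against 156 CPM in comparison cells. Both were higher in the knockout within each class and lower in positive than in comparison cells within each library. Among the lower genes, the inflammasome sensor gene Nlrp3 was at 8.45 against 57.6 CPM in positive cells and 14.0 against 66.1 CPM in comparison cells. Nfil3, a transcription factor of the circadian output, was at 24.4 against 142 CPM in positive cells and 30.7 against 161 CPM in comparison cells, Pde4b, which degrades cyclic AMP, at 19.7 against 113 CPM in positive cells and 19.2 against 115 CPM in comparison cells, and Id3, an inhibitor of DNA-binding factors, at 7.98 against 51.5 CPM in positive cells and 9.36 against 46.3 CPM in comparison cells. Rgs1 was at 96.7 against 853 CPM in positive cells and 201 against 1536 CPM in comparison cells, lower in the knockout and lower in positive cells. For all 4 of the genes before it, the ratio between the libraries exceeded the ratio between the classes.

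**Figure D5:**
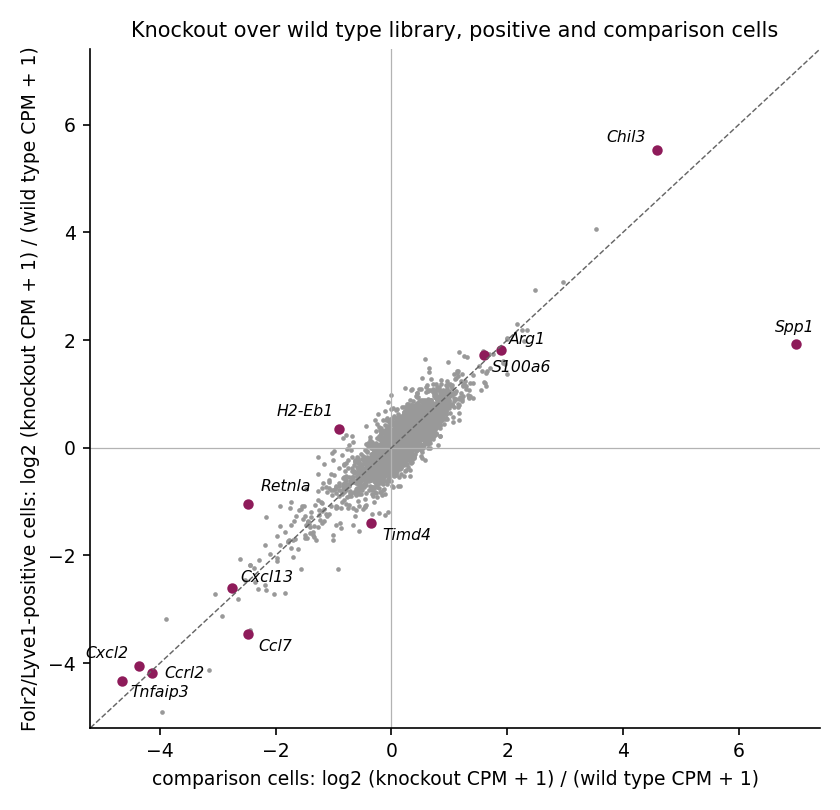
Log2 ratio of the Ankrd22 knockout over the wild type library, with 1 CPM added to each, in comparison cells (horizontal) and in Folr2/Lyve1-positive cells (vertical). Each point is a gene at 20 CPM or more in the positive cells of at least 1 library, and the dashed line marks equal ratios. Chil3 (4.59 and 5.53) and Tnfaip3 (-4.65 and -4.32) lie near the line at either end, Retnla and H2-Eb1 lie above it, and Spp1 and Timd4 below.

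By gene group, inflammatory genes were lower in knockout positive cells for 16 of 17 measured, with a median log2 ratio of -2.72, against 14 of 15 and -2.62 in comparison cells. Over all genes in positive cells, 2.18% were lower and 2.07% higher, and TMM scaling gave 172 lower and 42 higher. Chemokines counted 10 of 14 lower and 1 higher, and growth factors 6 of 9 lower. Of the tissue macrophage markers, 6 of 23 were lower (Retnla, F13a1, Timd4, Pf4, Igf1 and Ccl24) and 1 higher (Fxyd2), with a median of -0.28 beside -0.62 in comparison cells. Class II genes counted 0 of 11 either way. Mitochondrially encoded genes counted 6 of 10 higher, with a median of 1.02 beside 1.07. The mitochondrial share, also higher in the knockout in both classes, is counted from mitochondrially encoded genes and is no separate reading.

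Few genes had a knockout to wild type ratio that differed 2-fold between the classes: of 5525 genes, 9 (0.163%) had a higher and 7 (0.127%) a lower ratio in positive cells. Retnla was 2.06-fold lower in the knockout in positive cells (2.0 to 2.13) and 5.59-fold lower in comparison cells (5.48 to 5.71). H2-Eb1 was 1.28-fold higher in knockout positive cells (1.12 to 1.46) and 1.93-fold lower in knockout comparison cells (1.81 to 2.05). The knockout H2-Eb1 UMIs lay in 36 of 93 positive cells, and the top 5 cells held 40.6% of them. Thinned positive cells had nearly equal H2-Eb1 shares, 27.5% (18.6 to 37.8) for the knockout beside 26.9% (22.5 to 31.6) for the wild type library. How far a few cells carried the 1.28-fold value was not tested. H2-Aa and Cd74 had log2 ratios of -0.06 and 0.22 in positive cells and -1.0 and -0.68 in comparison cells. The markers Mrc1, Cbr2 and Maf had log2 ratios of -0.23, -0.50 and -0.03 in positive cells and -1.0, -1.04 and -0.77 in comparison cells, so the libraries lay closer in the positive cells for each. Lyz1, a lysozyme, was at 1076 against 2639 CPM in positive cells and 476 against 2139.8 CPM in comparison cells. Timd4 was 2.67-fold lower in knockout positive cells (2.21 to 3.24) and 1.27-fold lower in knockout comparison cells (1.24 to 1.30). The monocyte-attracting chemokine genes Ccl7 and Ccl2 had lower ratios in positive cells, with log2 values of -3.46 and -2.72 against -2.48 and -2.02. The knockout positive cells held only 12 Ccl7 UMIs, in 6 cells, and 43 Ccl2 UMIs, in 17 cells. One cell held 41.7% and 23.3% of them. In the wild type positive cells the top 5 cells held 33.9% and 32.2%. Spp1, which encodes the matrix protein osteopontin, was at 95.3 against 24.4 CPM in positive cells and 598 against 3.74 CPM in comparison cells. In the wild type library 175 of 178 Spp1 UMIs of the positive cells lay in 1 cell, and the level without it was 0.412 CPM. In the knockout library the cell with the most held 34.0% of the UMIs, 24 cells had a UMI, and the level without that cell was 63.9 CPM. After thinning, Spp1 was seen in 8.79% (3.87 to 16.6) of positive against 37.7% (36.4 to 39.0) of comparison cells of the knockout library. The wild type shares were 0.783% (0.162 to 2.27) and 0.997% (0.738 to 1.32).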

How the data were processed

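The deposited values are counts of UMIs for each gene and barcode of 1 library per genotype. Per the file headers, the authors obtained them from Cell Ranger 6.1.2. The libraries used 10x Genomics 3' chemistry per the labels' protocols. The submitters' processing notes also name bcl2fastq, Seurat 4.1.0 and mm9. Gene positions come from GENCODE M21 (GRCm38), which held all 55450 identifiers of the files. The libraries held 110956482 and 96869041 UMIs in 6706 and 6315 barcodes (knockout and wild type).

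Barcodes with at least 500 genes and at most 10% mitochondrial UMIs were kept. Scrublet (scanpy 1.11.5) called 1 barcode in each library, which is no working call, so no doublets were removed. UMIs were summed per class and library, scaled to CPM and compared as log2 of (CPM + 1). A call needed a 2-fold ratio and 20 CPM in the higher sum, and a concordant call needed both libraries. Fold changes are plain CPM ratios with exact conditional binomial intervals, CPM intervals are exact Poisson, and shares have exact Clopper-Pearson intervals. PCR and sorting losses are not covered. Genes were named at 50 CPM or more: 12 highest and 12 lowest for both libraries and for knockout over wild type, 6 and 6 for the difference of ratios, and up to 4 per gene list at a mean of 20 CPM, beside the markers given. Rule genes and mitochondrial, ribosomal, immunoglobulin, haemoglobin and Y-linked genes, Xist and unnamed models were left out of those rankings. Genes named outside this rule (Adgre1, Csf1r, Igf1, Pf4, Ccl24, C1qa, H2-DMb1, Ciita, Cd44, Clec4a1, Clec4a2, Stab1, Fxyd2) come from the lists. Results of 1 listed gene are not reported here. The cells, the lists and the named markers were chosen with earlier results of these data known. In a trial on simulated data at these depths, 50 of 50 genes altered 3-fold and 0 of 50 altered 1.5-fold passed in each comparison, and 0 of 4736, 0 of 4326 and 1 of 4730 unaltered genes passed. The trial drew counting noise only, on the summed UMIs of a class. It does not cover uneven spread over cells, concordant calls or the difference of ratios, so it gives no error rate for the calls. Alternatives covered scaling, pseudocount, CPM floor, per-cell means, the UMI rule, doublets, mitochondrial share and depth. TMM factors came from edgeR 4.0.16 (R 4.3.3), with no test. Other steps used scipy 1.17.1, pandas 2.3.3, numpy 2.4.6 and anndata 0.12.19 in Python 3.11.15, and matplotlib 3.10.9 drew the figures.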

Additional observations from a re-analysis of the deposited data

Results flagged for a closer look

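Spp1 differed in direction between the libraries. Its log2 ratio of positive over comparison cells was -2.64 for the knockout and 2.42 for the wild type cells, and this difference was not tested. Of the wild type Spp1 UMIs in positive cells, 98.3% lay in 1 cell, without which the wild type ratio was -1.75.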

How the results depend on the processing

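The lower share of positive cells in the knockout library, the signs of all 24 genes named for positive against comparison cells, of all 24 named for knockout against wild type and of all 12 named for the difference of ratios were the same under every alternative run for them. How many genes passed 2-fold depended on the settings, and 44 of 88 shares and counts moved. The shares (knockout and wild type) were 0.943 and 4.76% with 3 or more rule UMIs, 0.377 and 1.87% with a UMI of each gene, 2.03 and 7.57% without the Ccr2 limit and 0.612 and 3.86% with the rule on thinned cells. Genes higher and lower in positive cells of both libraries numbered 16 and 4 at a floor of 50 CPM, 58 and 33 with no floor, 53 and 23 with a UMI of each gene and 46 and 22 with the rule on thinned cells, and 17 were lower with TMM. Genes higher and lower in the knockout positive cells numbered 45 and 70, 793 and 379 and 379 and 188 in the first 3 of these settings. The number higher was 42 with TMM, 42 with the median of ratios, 59 with 5 CPM added and 217 with the rule on thinned cells. Genes with a higher and a lower ratio in positive cells numbered 2 and 2 with 5 CPM added, 3 and 2 at a floor of 50 CPM, 199 and 304 with no floor, 19 and 21 with means of per-cell CPM, 24 and 11 with 3 or more rule UMIs, 141 and 129 with a UMI of each gene, 16 and 11 without the Ccr2 limit and 51 and 50 with the rule on thinned cells, and 11 had a lower ratio with the highest doublet scores removed. A lower floor and fewer cells bring in genes with few UMIs, and for the other settings the cause was not tested.

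Of 7616 alternative values of single genes and lists, 7 turned in direction from a main ratio of 2-fold or more. Turns of smaller ratios were not counted. Spp1 in the wild type library had log2 ratios of -1.62 with 3 or more rule UMIs, -1.31 with a UMI of each gene, -1.34 with the rule on thinned cells and -1.75 without its top cell, the last chosen after seeing the data. For knockout over wild type, Retnla was at 0.048 without the Ccr2 limit, Ccl4 at 0.56 with a UMI of each gene and Ube2c at 0.19 with the rule on thinned cells, and the cause was not tested. Of the 27 genes higher in both libraries, 25 stayed past 2-fold without the positive cell that held the most of their UMIs, and Pkp4 and Raph1 did not. All 11 lower genes stayed as well, but leaving out that cell lowers their level in positive cells. For them this step could not have undone a call. The 93 knockout cells limit the precision, and no value covers variation between mice. No paired analysis was possible because each genotype had 1 library and the labels give no replicate numbers.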
